A study of Mus musculus with 6 samples.

Results

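Emx1, Emx2, Lhx2, Pax6, Dmrt3, Dmrta1, Dmrta2, Nr2f1 and Nr2f2 encode transcription factors that pattern the dorsal telencephalon, the part of the forebrain that forms the cerebral cortex. They were taken as a set by name, 9 of the 18194 genes that the arrays name. All 22 probe sets that name one of them and no other gene were used, of 34958 probe sets naming a single gene. The arrays came from mouse embryos of embryonic day E9.5, of E10.5 or of E12.5, whose forebrain was dissected by hand rostral to the level where the lateral ventricles end caudally. The groups were Fezf1-/- Fezf2-/- embryos (knockout), which lack a pair of zinc-finger transcription factors expressed early in forebrain development, and wild-type embryos, with 1 array for each genotype and age, 6 in all. The labels give no strain, and they do not say how many embryos went into an array. No group has a replicate, so the repeats of the genotype comparison are the 3 ages, and any p-value measures only the spread between these arrays.

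Cortical progenitors lie between a ventral telencephalic territory below, the cortical hem at the medial edge and a source of fibroblast growth factors at the rostral end. Lhx2 selects cortical identity over hem identity, Pax6 and Emx2 form opposing gradients across the cortical sheet and hold the border with the ventral telencephalon, and the Dmrt genes act beside them in medial progenitors. Nr2f1 and Nr2f2 (COUP-TFI and COUP-TFII) are nuclear receptors that specify caudal cortical areas. These genes are active in dividing progenitors from the earliest telencephalon onward, with Emx1 starting later than Emx2.

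All values below are probe set signals after quantile normalization between arrays. Where 3 values of a genotype follow each other, they run in order of age. Differences are on the log2(signal + 6.50) scale, knockout minus wild type, so that -1 is 2-fold lower in the knockout and the difference of a dim probe set is understated. Before normalization the median signal of an array ran from 16.0 to 37.1 in the knockout and from 14.2 to 33.7 in wild type. Fezf2 signal was 0.458, 0.904 and 1.66 in the knockout, against 78.9, 146 and 249 in wild type. Fezf1 signal was 97.7, 78.4 and 49.5 in the knockout, against 251, 143 and 174 in wild type; whether its probe set lies in the deleted part is not given in the sources used here. Of 8 Hox genes, markers of the hindbrain and spinal cord, 7 lay under the median of all values (24.0) on every array. The other, Hoxa5, had 88.6, 69.3 and 39.2 in the knockout and 47.6, 76.0 and 42.3 in wild type.

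Of the 22 probe sets, 16 passed the filter on dim probe sets, at least 1 for each of the 9 genes. The other 6 had signals between 0.471 and 38.6. Across the 3 ages no member passed the genotype test (limma, adjusted over 19593 probe sets), against 0.0255% of all tested probe sets that passed as lower and 0.0051% as higher. At an unadjusted p under 0.05, 9 of the 16 were lower and 0 were higher, where 2.3% of all tested probe sets were lower and 2.2% higher. The number lower depended on the processing. It stayed 9 with a pseudocount of 1 or 32 and was 8 with a common trimmed mean. It fell to 5 without a variance trend, 3 on the values as deposited and 0 with age left out of the fit. The members had been proposed with earlier results of these arrays known, so these counts are a description. Of the 16, 14 had a mean difference below 0, and their median was -0.27, against 0.01 over all tested probe sets. In dissected tissue, fewer cells of a type and less RNA per cell cannot be told apart.

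**Figure D1:**
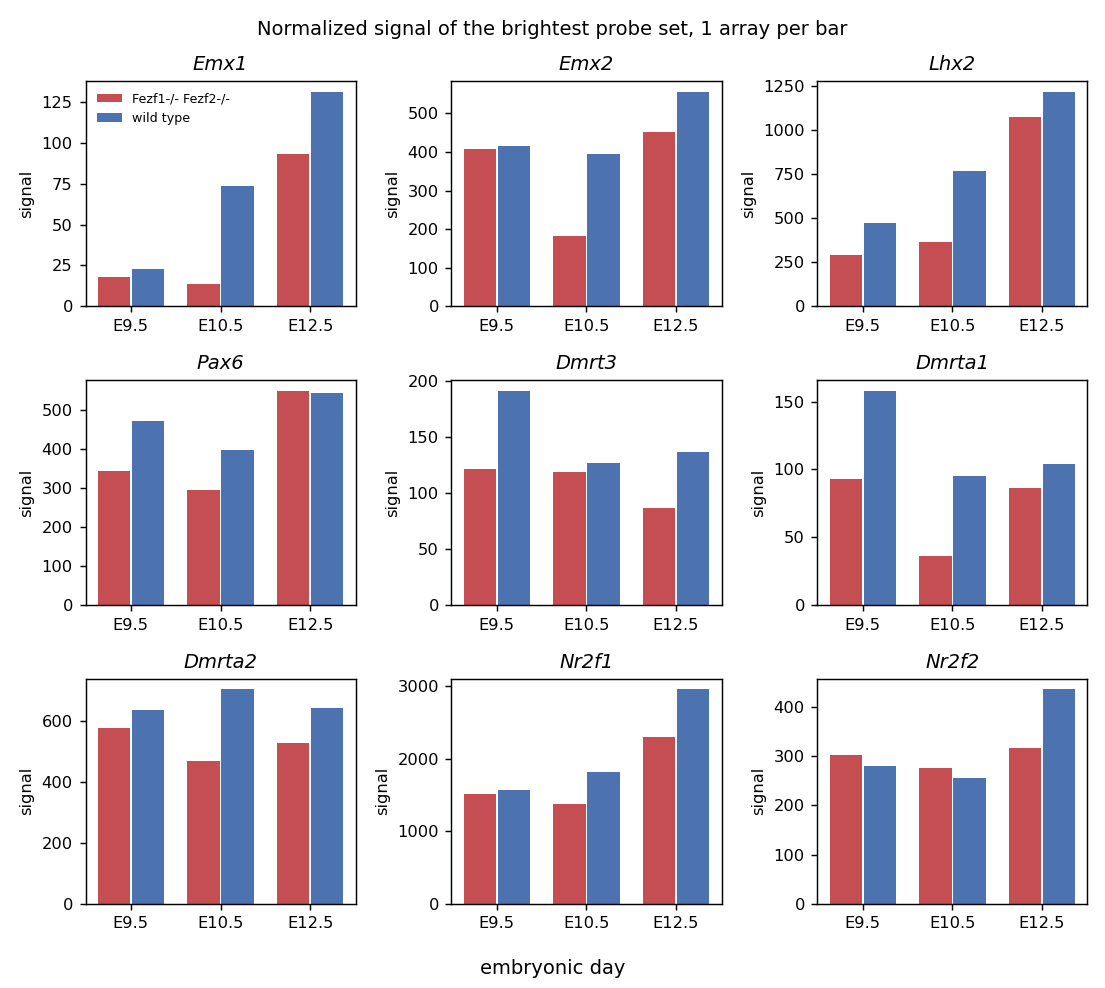
Normalized signal (vertical axis, linear from 0) of the brightest probe set of each gene by age, with the knockout array as the red bar and the wild-type array as the blue bar to its right. There is 1 array per bar and so no error bar. At E10.5 the knockout bars of Emx1 (13.9 against 73.9), Emx2, Lhx2 and Dmrta1 stand at under 0.5 of the height of those of wild type, while the Nr2f2 bars are close (276 against 255).

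The Emx genes encode homeodomain proteins related to the fly gene empty spiracles. Emx1 (probe set 1441777_at) had signals of 17.6, 13.9 and 93.5 in the knockout, against 23.0, 73.9 and 131 in wild type. The knockout was lower at every age, and the gap was widest at E10.5, when wild-type Emx1 was already 1.45 above its E9.5 value on the log2 scale and knockout Emx1 was at -0.24 from its own. The differences were -0.29, -1.98 and -0.46, and their mean was -0.91 ± 0.30 (moderated SE, 3 pairs; limma adjusted p = 0.9999). Leaving out E10.5, it was -0.38. The second Emx1 probe set, 1444216_at, was dim, with 2.10, 0.857 and 3.65 in the knockout and 0.914, 0.963 and 25.3 in wild type. Its arrays stood apart at E12.5 (-1.65), and its earlier values were all near 0.

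Emx2 (1456258_at) was present at all ages, with signals of 407, 183 and 451 in the knockout and 415, 395 and 556 in wild type. The genotypes were close at E9.5 (-0.03), and the knockout array of E10.5 stood alone as the lowest of the 6 (-1.08), with a smaller difference at E12.5 (-0.30). The mean difference was -0.47 ± 0.17 (adjusted p = 0.9999 by limma), and -0.16 without the E10.5 pair. Both Emx genes had their lowest knockout value at E10.5, though the Emx1 knockout values of E9.5 and E10.5 (17.6 and 13.9) both lay under 24.0. Emx2 was bright from E9.5 on in wild type, whereas Emx1 was not.

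Lhx2, a LIM-homeodomain factor, had signals of 293, 364 and 1074 in the knockout and 475, 766 and 1217 in wild type (1418317_at). The knockout was lower at all 3 ages, with differences of -0.68, -1.06 and -0.18, and knockout Lhx2 at E10.5 was still under the wild-type value of E9.5. Its mean, -0.64 ± 0.14, had the smallest limma p of the set (unadjusted p = 9.58e-04, adjusted p = 0.572). It was -0.43 without the E10.5 pair and -0.87 without the E12.5 pair.

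Pax6, a paired-box and homeodomain factor of cortical progenitors, eye and other parts of the forebrain, has 5 probe sets. The brightest, 1419271_at, had 344, 294 and 550 in the knockout and 473, 398 and 543 in wild type. It was lower in the knockout at E9.5 and E10.5 (-0.45 and -0.43) and level at E12.5 (0.02), with a mean of -0.29 ± 0.11 (limma adjusted p = 0.9999). The next, 1452526_a_at, had 88.4, 124 and 138 in the knockout and 103, 125 and 154 in wild type, differences of -0.20, -0.01 and -0.16. The third tested one, 1437816_at, was dimmer (37.2, 29.6 and 16.6 in the knockout, 55.7, 17.6 and 15.9 in wild type), with differences of -0.51, 0.58 and 0.04. All 5 Pax6 probe sets were lower in the knockout at E9.5, and at E10.5 they lay on both sides of 0. Of the 2 below the filter, 1425960_s_at was lower at each age (-0.32, -0.89 and -0.26), while 1456342_at had 27.2 in the knockout and 3.0 in wild type at E10.5, a difference of 1.83.

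The Dmrt genes encode zinc-finger proteins with the DM domain, first known from sex determination, and 3 of them serve in the dorsal telencephalon. Dmrta1 (1441579_at) had 93.2, 36.2 and 86.3 in the knockout and 158, 94.8 and 104 in wild type. It was lower in the knockout at every age, with differences of -0.72, -1.25 and -0.26, and its knockout value at E10.5 was the lowest of the 6 arrays. The mean was -0.74 ± 0.19 (moderated SE; limma adjusted p = 0.9999), and -0.49 without the E10.5 pair.

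Dmrta2 (1441107_at) varied less, with 577, 469 and 529 in the knockout and 638, 705 and 642 in wild type. After normalization all 3 knockout arrays lay under all 3 wild-type arrays, with differences of -0.14, -0.58 and -0.28 and a mean of -0.33 ± 0.09. As deposited, the knockout value of E12.5 (731) lay above the wild-type values of E9.5 (620) and E10.5 (462). The deposited differences were -0.05, -0.29 and -0.02. Relative to the median of all tested probe sets they were -0.13, -0.55 and -0.23. Dmrt3 by its brightest probe set, 1440707_at, had 121, 119 and 86.6 in the knockout and 192, 127 and 137 in wild type. Unlike the Emx genes, Lhx2 and Dmrta1, this probe set differed least at E10.5 (-0.09) and more at E9.5 and E12.5 (-0.63 and -0.62). Its mean was -0.45 ± 0.14 and was -0.63 without the E10.5 pair. The second tested Dmrt3 probe set, 1420182_x_at, went the other way at each age (0.53, 0.02 and 0.15), with 56.4, 36.5 and 38.1 in the knockout and 37.0, 35.8 and 33.8 in wild type. The 2 dim ones stayed at or under 19.6 on every array, so the direction of Dmrt3 rests on a single probe set.

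Nr2f1 (1418157_at) had signals of 1511, 1379 and 2308 in the knockout and 1570, 1815 and 2959 in wild type. The genotypes were close at E9.5 (-0.05), and the knockout was lower at E10.5 (-0.40) and E12.5 (-0.36). The mean difference was -0.27 ± 0.08 (limma adjusted p = 0.9999). Nr2f2, its close relative, has 6 probe sets, of which 5 were tested. The brightest, 1416159_at, had 302, 276 and 316 in the knockout and 280, 255 and 435 in wild type. It was slightly higher in the knockout at E9.5 and E10.5 (0.11 and 0.12) and lower at E12.5 (-0.45). All 5 tested Nr2f2 probe sets were lower in the knockout at E12.5, with differences between -0.33 and -0.88, while at E10.5 they lay on both sides of 0, between -0.26 and 0.41. Nr2f2 is also expressed by head mesenchyme and venous endothelium. At E12.5 the 17 mesenchyme and neural crest markers summed to 1796 in the knockout and 2667 in wild type, and 13 of the 14 tested were lower in the knockout (46.4% of all tested genes), while 12 endothelial markers summed to 1452 in the knockout against 1419 in wild type. The part of either list in the Nr2f2 difference was not tested.

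**Figure D2:**
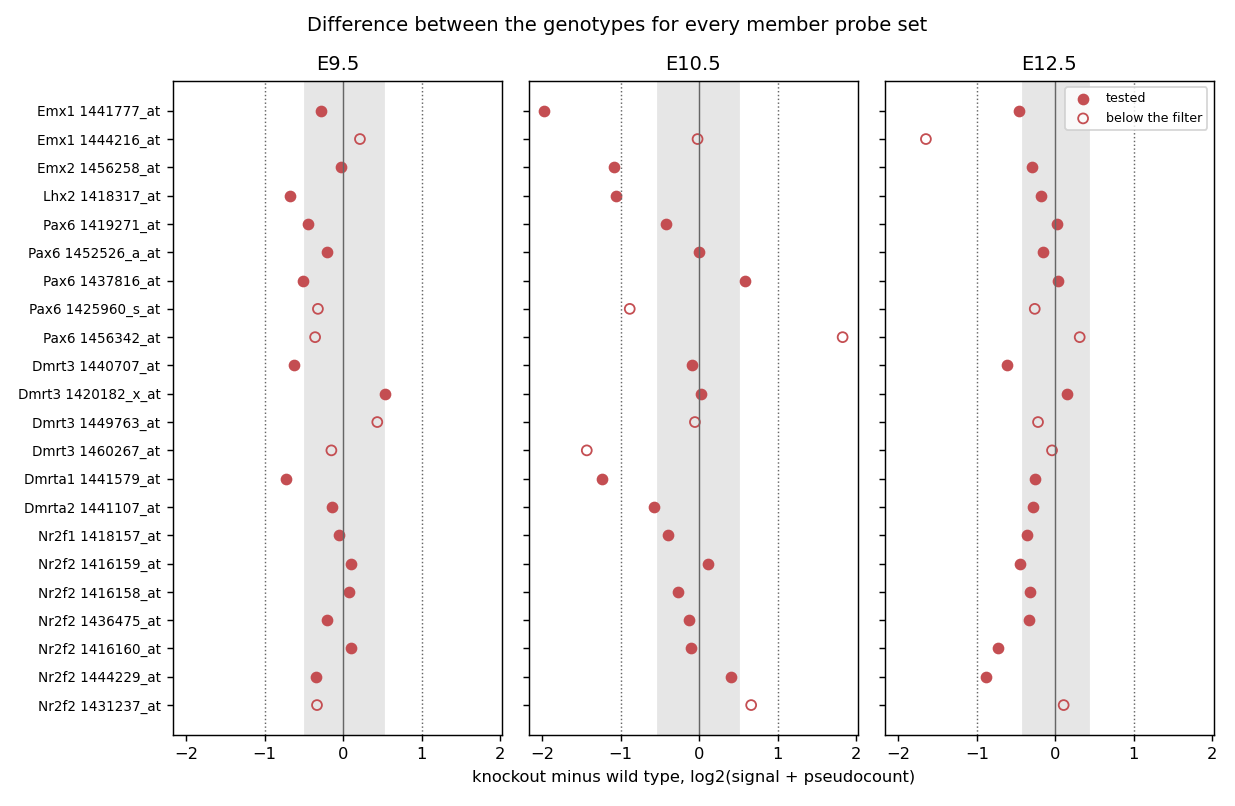
Knockout minus wild-type difference (horizontal axis, log2(signal + 6.50)) of all 22 probe sets, with 1 age and 1 pair of arrays per panel, with filled points for the 16 tested probe sets and open points for the 6 below the filter. The grey band holds the middle 90% of all tested probe sets, and dotted lines mark 2-fold. Emx1 1441777_at, Emx2, Lhx2 and Dmrta1 lie past the lower line at E10.5 and at no other age, with the dim Dmrt3 1460267_at, whose brighter signal was only 12.3, and the Nr2f2 probe sets lie left of 0 at E12.5 except the dim 1431237_at (0.11).

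At a single age there is 1 array per genotype and no test. A probe set was counted if it differed by at least 1 on the log2(signal + 6.50) scale, called 2-fold here, and its brighter signal was above 24.0. At E9.5 none of the 22 was counted, lower or higher (0.855% and 0.913% of all single-gene probe sets). At E10.5 4 were at least 2-fold lower, against 1.18% of all. They were Emx1 (1441777_at, -1.98), Dmrta1 (-1.25), Emx2 (-1.08) and Lhx2 (-1.06), the last 2 only just past the limit. The size for Emx1, whose knockout signal lay under 24.0, depends on the constant added before taking logs: it was -2.33 with 1 and -1.21 with 32. The dim Pax6 probe set 1425960_s_at, with 17.9 in the knockout and 38.6 in wild type, was at -0.89 and passed the limit (-1.07) with a constant of 1. The dim Pax6 probe set 1456342_at was the only one at least 2-fold higher (1.06% of all). At E12.5 the dim second Emx1 probe set was counted as lower (-1.65; 0.257% of all), and none was higher (0.286%).

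The smaller differences also lay mostly below 0. Of the 16 tested probe sets, the numbers lower in the knockout by age were 12, 12 and 13, where 49.2%, 49.7% and 47% of all tested probe sets were lower. Lower at all 3 ages were 9 of 16, against 11.4% of all, and higher at all 3 was 1, against 13% of all. Their medians by age were -0.21, -0.20 and -0.31, against 0.00, 0.00 and 0.01 over all tested probe sets. On the values as deposited, where the median of all tested probe sets was shifted by 0.08, 0.26 and 0.21, the differences relative to that median at E10.5 were -1.94 for Emx1, -1.32 for Dmrta1, -1.09 for Emx2 and -1.07 for Lhx2, close to those above. Whether the genotype difference itself changed between ages could not be tested with 1 array per group.

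The arrays of E10.5 also differed in other ways. Xist, the RNA that coats an inactive X, gave a signal of 11.7 in the knockout against 573 in wild type at this age, and control RNAs added at labelling had knockout over wild-type ratios of 1.67 to 2.04 in the deposited values (0.970 to 1.27 at E9.5, 1.03 to 1.08 at E12.5). Their part in the E10.5 differences was not tested. Leaving this pair out, 10 of the 16 tested probe sets were lower in the knockout at both other ages, against 23.1% of all tested probe sets.

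The upstream sequences of the 4 genes that were at least 2-fold lower at E10.5 are shown with that of Nr2f2, whose brightest probe set was not lower at that age. Each runs from 250 bases before to 50 bases after a RefSeq gene start (GRCm38.p6), read 5′ to 3′ on the gene's strand, and for Lhx2, which has a pair of starts in that table, the upstream one is given. Capitals mark matches on either strand to TAATTA (the homeodomain core), CCAAT (the CCAAT box), TATAAA (the TATA box), GGGCGGG (the GC box bound by Sp and KLF factors), AGGTCA (a nuclear receptor half-site) and CAGCTG (an E-box).
Emx1 (chr6:85187681-85187980, + strand): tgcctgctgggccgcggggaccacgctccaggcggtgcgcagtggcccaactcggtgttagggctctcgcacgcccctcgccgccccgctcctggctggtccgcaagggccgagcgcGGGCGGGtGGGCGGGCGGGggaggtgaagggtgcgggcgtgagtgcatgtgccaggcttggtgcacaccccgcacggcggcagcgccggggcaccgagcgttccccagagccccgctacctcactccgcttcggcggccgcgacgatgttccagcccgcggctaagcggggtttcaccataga
Emx2 (chr19:59458440-59458739, + strand): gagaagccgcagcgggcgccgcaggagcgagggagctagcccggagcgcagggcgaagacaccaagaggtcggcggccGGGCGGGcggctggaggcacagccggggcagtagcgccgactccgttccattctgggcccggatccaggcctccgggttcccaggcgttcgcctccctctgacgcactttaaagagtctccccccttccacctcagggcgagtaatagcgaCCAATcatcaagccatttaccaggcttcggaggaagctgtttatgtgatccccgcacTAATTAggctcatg
Lhx2 (chr2:38339031-38339330, + strand): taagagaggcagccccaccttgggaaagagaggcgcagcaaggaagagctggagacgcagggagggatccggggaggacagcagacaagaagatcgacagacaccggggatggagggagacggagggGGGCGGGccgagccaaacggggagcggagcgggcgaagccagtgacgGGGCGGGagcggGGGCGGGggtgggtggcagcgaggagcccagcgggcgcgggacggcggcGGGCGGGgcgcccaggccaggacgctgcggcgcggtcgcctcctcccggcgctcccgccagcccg
Dmrta1 (chr4:89687948-89688247, + strand): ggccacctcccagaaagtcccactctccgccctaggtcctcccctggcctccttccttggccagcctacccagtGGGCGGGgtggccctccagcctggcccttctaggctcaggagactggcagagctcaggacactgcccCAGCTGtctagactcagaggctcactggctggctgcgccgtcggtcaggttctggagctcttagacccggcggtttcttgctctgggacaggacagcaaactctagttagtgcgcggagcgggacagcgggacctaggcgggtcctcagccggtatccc
Nr2f2 (chr7:70366697-70366996, - strand): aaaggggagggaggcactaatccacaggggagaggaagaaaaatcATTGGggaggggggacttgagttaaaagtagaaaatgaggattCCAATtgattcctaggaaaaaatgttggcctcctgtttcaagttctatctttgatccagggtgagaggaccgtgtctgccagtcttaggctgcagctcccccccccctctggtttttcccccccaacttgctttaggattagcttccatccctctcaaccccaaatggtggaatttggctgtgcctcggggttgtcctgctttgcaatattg

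The GC box letters were found in the first window of Emx1 (3 matches, of which a pair overlap), Lhx2 (4), Emx2 (1) and Dmrta1 (1), and in none of the other 8 windows of the 9 genes. That is 4 of 12 windows, where 25.6% of 32851 RefSeq windows of this length hold it. The motifs were chosen after the values were seen, so the division between the genes is a description. These 4 windows were 64.3% to 74.7% G and C, where the median of all windows was 52.7%. Those of Dmrt3 (70.7%), of the second Lhx2 start (69.3%) and of the first Nr2f1 start (68%) lay in the same range. They hold no match to the GC box letters. TAATTA occurred in the Emx2 window alone (5.29% of all windows), and CCAAT in 5 of 12 windows (37.4% of all). CAGCTG was found for Dmrta1 and Dmrt3 (16.3% of all). No window held TATAAA (13.6% of all) or AGGTCA (16.3% of all). A match is a string of letters and not a measured binding site.

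With age, some tested probe sets of the set passed as rising, some passed as falling and others did not pass. From E9.5 to E12.5, over both genotypes, 7 of the 16 tested probe sets rose and 2 fell (limma, adjusted p under 0.05), against 26.3% and 32.9% of all tested probe sets. Emx1 rose by 2.14 ± 0.37 (adjusted p = 7.3e-04) and Lhx2 by 1.60 ± 0.17 (adjusted p = 3.1e-05). Both E9.5 signals of Emx1 lay under 24.0, and with 32 added before taking logs their order turned, to 1.45 for Emx1 and 1.53 for Lhx2. Nr2f1 rose by 0.76 ± 0.09 (adjusted p = 7.5e-05), as did the Nr2f2 probe sets 1416160_at (1.13 ± 0.21) and 1416158_at (0.66 ± 0.13). The other 3 tested Nr2f2 probe sets did not pass, among them the brightest, 1416159_at (0.34 ± 0.15; limma adjusted p = 0.0738). Both genotypes moved the same way in each: Lhx2 was 1.85 higher at E12.5 in the knockout and 1.35 higher in wild type, and Emx1 2.05 and 2.23 higher. The ages also differed in other ways. The deposited 3′ over 5′ signal ratio of the beta-actin control was 3.21 (knockout) and 3.12 (wild type) at E9.5. It was 1.59 and 1.84 at E10.5, and 1.45 and 1.44 at E12.5. The Gapdh ratio varied less, from 0.823 to 0.949. Xist signal was 453 (knockout) and 725 (wild type) at E9.5, and 17.6 and 9.87 at E12.5. The part of these in the changes with age was not tested.

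Pax6 gave opposite answers by probe set. Both 1419271_at (0.43 ± 0.13; limma adjusted p = 0.0167) and 1452526_a_at (0.58 ± 0.15; adjusted p = 0.00725) rose, while 1437816_at fell by 1.20 ± 0.32 on the log2 scale (adjusted p = 0.00950). Dmrt3 fell by its brightest probe set (-0.46 ± 0.17; adjusted p = 0.0423). On the values as deposited, where all tested probe sets were shifted by 0.47 between these ages, Dmrt3 stood at 0.19 (adjusted p = 0.405), which is -0.28 relative to that shift. The Dmrt3 call was also lost with a common trimmed mean (-0.22; adjusted p = 0.304), without the filter (adjusted p = 0.0767) and without the variance trend (adjusted p = 0.0792). Emx2 (0.28 ± 0.20), Dmrta1 (-0.34 ± 0.23) and Dmrta2 (-0.06 ± 0.12) did not pass.

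**Figure D3:**
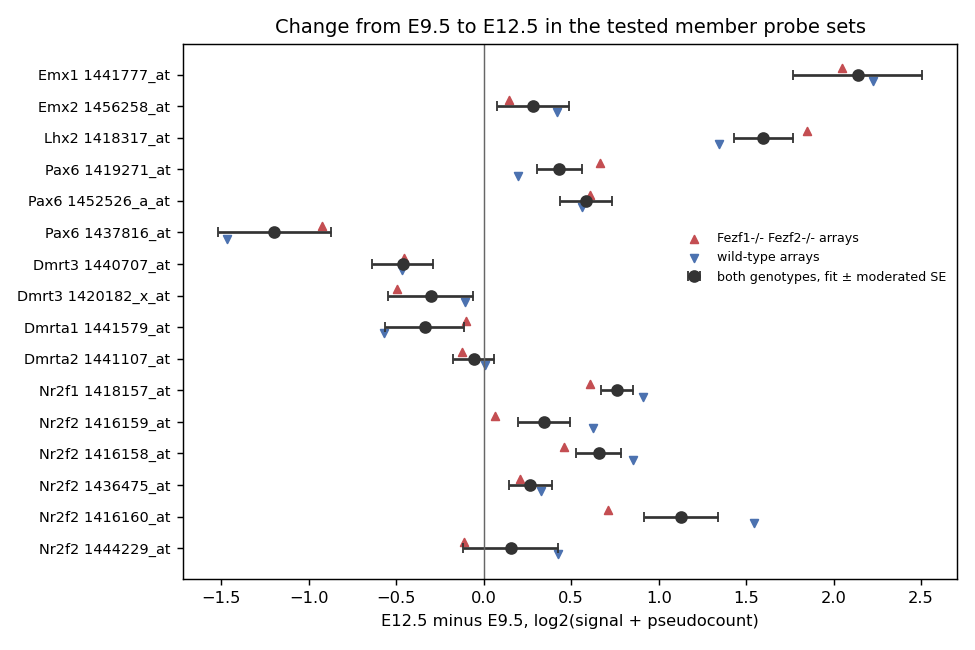
Change from E9.5 to E12.5 (horizontal axis, E12.5 minus E9.5 on the log2(signal + 6.50) scale) of the 16 tested probe sets, as the estimate over both genotypes with its moderated SE (black), the knockout arrays alone (red triangles) and the wild-type arrays alone (blue triangles). Emx1 and Lhx2 lie farthest right on this scale, at 2.14 and 1.60, and the Pax6 probe set 1437816_at farthest left, at -1.20.

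The first step, E9.5 to E10.5, held few of these changes. None of the 16 rose (16.2% of all tested probe sets did), and 2 fell (13.6% of all): Dmrta1 by 0.96 ± 0.23 (limma adjusted p = 0.0119) and the Nr2f2 probe set 1436475_at by 0.67 ± 0.12 (adjusted p = 0.00347). Dmrta1 changed by -1.22 over this step in the knockout and by -0.70 in wild type. Emx2 differed by -1.13 between these ages in the knockout and by -0.07 in wild type (estimate -0.60 ± 0.20; adjusted p = 0.0509). From E10.5 to E12.5, 10 probe sets of 7 genes rose (19.6% of all tested probe sets) and none fell (27.5%), namely Emx1, Emx2, Lhx2, Pax6, Dmrta1, Nr2f1 and 4 of Nr2f2. As deposited, all tested probe sets were shifted by -0.39 over the first step and by 0.84 over the second, and each of the calls named here kept its direction relative to that shift. The 3 age comparisons share arrays, so these counts are not independent of each other.

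At E10.5 to E12.5 the knockout and wild-type arrays differed in step size for several members. Emx1 was 2.29 higher at E12.5 in the knockout and 0.78 higher in wild type, Lhx2 1.54 and 0.66, Emx2 1.27 and 0.49, and Dmrta1 1.12 and 0.13. In these 4 the larger step was in the knockout, from the lower E10.5 values already given. The step of Nr2f2 (1416159_at) was smaller in the knockout, 0.19 against 0.76 in wild type. No test of these differences is possible with 1 array per group.

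Related genes and markers of neighbouring regions were counted by the brightest probe set of each gene. Of the dorsal telencephalic transcription factors outside the set, 13 were tested, and 12 of them were lower in the knockout at E10.5 (52.2% of all tested genes), 3 at least 2-fold (0.802%). These were Neurog2 (84.6 against 247 in wild type), Eomes (37.8 against 186) and Tbr1 (3.99 against 63.7), which act one after another as cortical neurons form. Their list medians by age were -0.06, -0.52 and -0.20, and those of the 9 members by the same rule -0.29, -0.58 and -0.30. Bcl11a, a zinc-finger factor of cortical neurons, was the only one at least 2-fold apart at another age, with 59.4 in the knockout and 24.8 in wild type at E9.5. Sox9, a progenitor factor, had the highest mean difference (0.34, -0.32 and 0.73).

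Partners and relatives of the members were mixed. Of 10 tested, 8 were lower in the knockout at E10.5 (52.2% of all tested genes), but 5 were lower at E9.5 and 4 at E12.5, and none was 2-fold apart. Ldb1, the cofactor that LIM-homeodomain proteins such as Lhx2 bind, had 93.8, 211 and 395 in the knockout and 184, 276 and 446 in wild type. It was lower at each age (-0.93, -0.38 and -0.17), while Lmo1, a LIM-only protein that binds the same cofactor, was at 0.38, -0.06 and 0.78. Among signals of the hem and the rostral centre, 9 of 13 were higher at E9.5 (52.8% of all tested genes), 9 were lower at E10.5 (52.2%) and 9 were lower at E12.5 (46.4%). Wnt8b, a Wnt ligand of the hem, had the largest negative mean (-0.43, -0.92 and -0.35). Bmp4, a dorsal midline signal, was at 0.32, 0.73 and -0.20.

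Genes of the ventral telencephalon, which several members hold back in the cortex, showed no direction common to all ages. Of 10 tested, 6 were higher in the knockout at E9.5, near the 52.8% of all tested genes. In the knockout 8 were lower at E10.5 (52.2% of all) and 8 were higher at E12.5 (53.5% of all). The medians by age were 0.56, -0.21 and 0.12. At E9.5 2 of the 10 genes were at least 2-fold higher (0.694% of all). Lhx8 had 111 in the knockout and 11.5 in wild type, and Dlx1 had 47.9 and 10.3. At E12.5 Ebf1 alone was at least 2-fold higher (0.369% of all), with 219 in the knockout and 87.6 in wild type. Gsx2, the ventral counterpart of Pax6 at the border, was close at E9.5 and E12.5 (-0.02 and 0.02) and at -0.53 at E10.5. At E12.5 all 11 tested genes of thalamus, pretectum and midbrain were higher in the knockout (53.5% of all tested genes), 9 at least 2-fold (0.369%), and the 18 genes with a probe set summed to 3349 in the knockout against 1319 in wild type. Pax7, a dorsal midbrain factor with the largest mean difference of the list, had 116 in the knockout against 10.9 in wild type. Pax6, Lhx2, Nr2f1 and Nr2f2 are also expressed in the diencephalon; the part of such tissue in their E12.5 values was not tested.

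Of 10 tested genes of the prethalamus and hypothalamus, a list that holds Fezf1 itself, 6 were higher in the knockout at E9.5 (52.8% of all tested genes), 8 were lower at E10.5 (52.2%) and 6 were lower at E12.5 (46.4%). The medians by age were 0.06, -0.52 and -0.19.

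Markers of tissue outside the neural tube also differed between the arrays. Surface ectoderm and placode genes, a further site of Pax6 expression, summed to 2518, 2480 and 393 in the knockout and 2176, 1906 and 345 in wild type. Of 12 tested, 11 were higher in the knockout at E9.5 (52.8% of all tested genes) and 10 at E10.5 (47.6%). The 17 mesenchyme and neural crest genes summed to 5825 and 6588 in the knockout at E9.5 and E10.5, against 4323 and 6245 in wild type. Among the 14 tested, 13 were higher in the knockout at E9.5 (52.8% of all tested genes) and 8 at E10.5 (47.6%). The list medians in order of age were 0.38, 0.08 and -0.63, so the direction was reversed at the last age. Of 10 eye and lens genes, 4 lay under 24.0 on every array, and the list summed to 621, 407 and 151 in the knockout and 582, 451 and 159 in wild type. The part of these tissues in the members' differences was not tested.

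**Figure D4:**
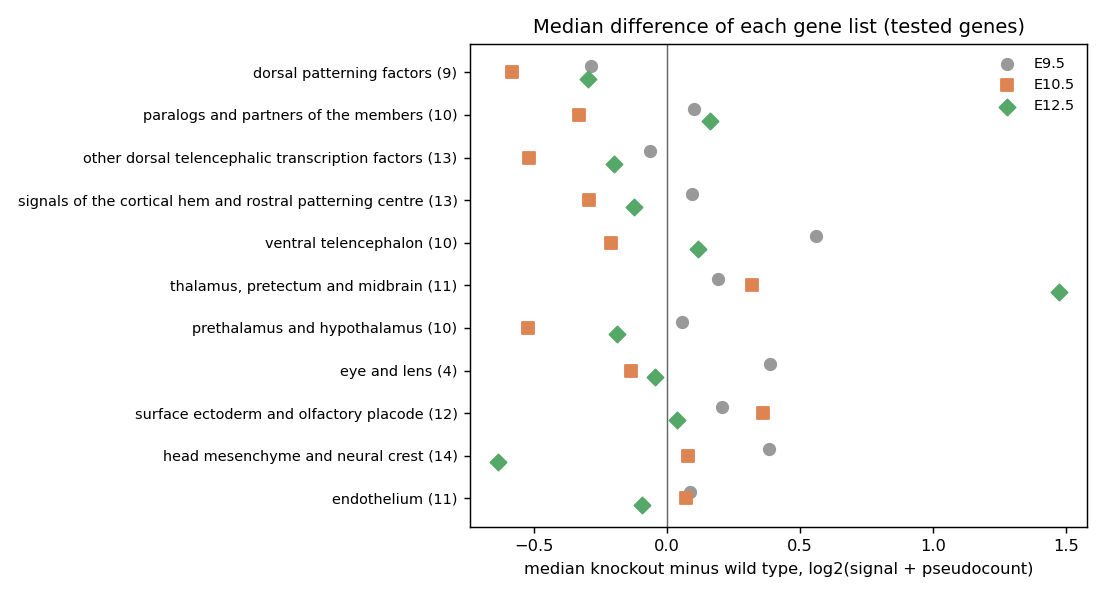
Median knockout minus wild-type difference (horizontal axis, log2(signal + 6.50)) of each gene list with at least 4 tested genes, by age, the number of tested genes in parentheses. The dorsal patterning factors lie left of 0 at all 3 ages (-0.29, -0.58 and -0.30), and thalamus, pretectum and midbrain genes lie farthest right at E12.5 (1.47).

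Among themselves, the members, each taken by its brightest probe set, fell into unlike courses over the 6 arrays. Other probe sets of the same gene, some with another course, were not compared. After each gene's own mean was taken off its 6 log2 values, the root mean square distance between 2 members was smallest for Pax6 and Nr2f1 (0.21) and for Nr2f1 and Nr2f2 (0.23), and largest for Emx1 and Dmrt3 (1.21). Emx1 lay nearest to Lhx2 (0.38) and farther from Emx2 (0.82). Over 10725 tested genes with a usual symbol, the nearest to Nr2f1 was Chn2 at 0.03, to Pax6 Ppt1 at 0.05, to Dmrta2 Cnih1 at 0.05, to Nr2f2 Nab1 at 0.06, to Emx2 Nkx2-2 at 0.13, to Dmrt3 Plekhn1 at 0.13, to Lhx2 Scrt1 at 0.17, to Dmrta1 Cacnb1 at 0.19 and to Emx1 Lrrc4b at 0.28. The distances are over 6 arrays and carry no test.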

How the data were processed

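The authors deposited 1 intensity value per probe set and array (linear, not log). The submitters' processing notes name MAS5. Its scaling target is not given in the sources used here, and the number of arrays limits the precision. Arrays were quantile normalized and taken as log2(signal + 6.50), the lower quartile of all deposited values. Probe sets whose mean lay above the median of all 45101 were tested. limma 3.58.1 in R 4.3.3 (eBayes with a trend) was fitted to all 6 arrays with genotype and age (2 residual degrees of freedom, 9.72 when moderated), and Benjamini-Hochberg adjusted p-values were taken over 19593 probe sets at a threshold of 0.05. The fit was tested on simulated data. The members, gene lists and tests were chosen with earlier results of these data known, and the motifs after the values were seen. From each list, genes passing the test, the largest 2-fold differences and both ends of the mean differences could be named. Alternatives covered scaling, pseudocount, filter, variance trend, age block, probe set summary and leaving out a pair. Promoters come from RefSeq (GRCm38.p6), where all 9 genes matched. Gene names come from the platform annotation. 932 probe sets naming several genes were left out. Genes without a single-gene probe set were not analysed here.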

Additional observations from a re-analysis of the deposited data

Results flagged for a closer look

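Of the 22 member probe sets, 10 differed between the genotypes in one direction at one age and in the other at another, and they are given here with the span between their highest and lowest difference (log2, knockout minus wild type). The difference between ages was not tested. Emx1 1444216_at spanned 1.86 (0.21, -0.02 and -1.65 in order of age). Among Pax6 probe sets, 1456342_at spanned 2.19, 1437816_at 1.09 and 1419271_at 0.468, the last only through a value of 0.02 at E12.5. Dmrt3 1449763_at spanned 0.655 (0.44, -0.05 and -0.22).

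The other 5 were Nr2f2 probe sets. Of these, 1444229_at spanned 1.29 (-0.34, 0.41 and -0.88), 1431237_at 0.997, 1416160_at 0.832, 1416159_at 0.571 and 1416158_at 0.397. The last 3 were slightly higher in the knockout at E9.5 and lower at E12.5. Of the 10, 6 are among the 16 tested probe sets.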

How the results depend on the processing

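No paired analysis by replicate number was possible because the labels give none. The genotype test already sets knockout against wild type within each age. The genotype test called 0 member probe sets, lower or higher, in every alternative run, leaving out each age pair included (0 to 0). E12.5 over E9.5 (7 higher, 2 lower): as deposited 11 and 0; lower 1 with a common trimmed mean, without a filter, with a filter at the upper quartile or without a variance trend; by gene, 4 and 1 with the brightest probe set and 3 and 0 with the mean of probe sets; without the E10.5 pair 9 and 2. E10.5 over E9.5 (0 higher, 2 lower): as deposited 11 lower; lower 1 without a trend and by gene with either summary; higher 1 with the trimmed mean, a pseudocount of 32, no filter, the stricter filter or without the E12.5 pair. E12.5 over E10.5 (10 higher, 0 lower): 15 higher as deposited, 7 without a filter, with the stricter filter or with the brightest probe set, 5 without a trend, 3 with the mean of probe sets, 1 lower without a filter, and 10 and 0 without the E9.5 pair.

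At E10.5, where 4 probe sets were at least 2-fold lower and 1 higher, 2 were lower as deposited (Emx1 and Dmrta1) or with a pseudocount of 32 (Emx1 and Lhx2), and 5 with a pseudocount of 1. The higher one was lost (0) as deposited, with the trimmed mean, the pseudocount of 32 and by gene, and the lower one at E12.5 was lost (0) with that pseudocount and with the brightest probe set. A 1.5-fold limit gave 3 lower at E9.5, 2 higher at E10.5 and 4 lower at E12.5. The mean genotype difference changed sign, never passing, as deposited for Nr2f2 1416158_at (0.044) and 1416159_at (0.15) and Pax6 1452526_a_at (0.055), for Pax6 1437816_at with the trimmed mean (-0.032), the pseudocount of 32 (-0.0029) and over the settings that leave out a pair, which gave -0.23 to 0.31 for Pax6 1437816_at, -0.17 to 0.11 for Nr2f2 1416159_at and -0.61 to 0.033 for Nr2f2 1444229_at. The E12.5 minus E9.5 change turned positive as deposited for Dmrt3 1420182_x_at (0.42) and 1440707_at (0.19), Dmrta2 (0.27) and Dmrta1 (0.36), and with the trimmed mean for Dmrt3 1420182_x_at (0.036). Beyond the shift of the deposited values, the cause was not tested. In all, 136 of 144 genotype and 80 of 96 age values of single probe sets kept their sign and their side of the threshold. Of the other age values, 5 lost a call and 6 gained one with the sign kept. The sign changed in 5, among them Dmrt3 1440707_at as deposited, which also lost its call. Scaling relative to the median was chosen after seeing the data.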
